A study of Mus musculus with 4 samples.

Results

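The genes described here build the machinery that copies DNA and the centromere that later pulls the copies apart. They were chosen by symbol alone from the RefSeq protein-coding genes of GRCm38: Mcm2 to Mcm10, Orc1 to Orc6, Gins1 to Gins4, every Cenp gene with 1 letter, and Cdc6, Cdc7, Cdc45, Cdt1, Pcna, Pola1, Pold1 and Pole. This rule found 47 of 21887 protein-coding genes, of which 27 serve replication and 20 are Cenp genes. Cenpc1, whose symbol carries a digit, is not among them. No measured value entered the rule, though earlier results of these data were known when it was chosen.

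The assay was ATAC-seq: Tn5, a transposase, inserts sequencing adapters into DNA that is not wrapped or covered, and reads pile up where chromatin is open. The cells were hair follicle stem cells from the back skin of female mice at postnatal day 30, sorted as positive for H2BGFP, CD34 and CD49f and negative for Sca-1. One genotype was K14-H2BGFP, K14Cre, Foxc1 fl/fl, in which the keratinocyte promoter K14 drives the recombinase that deletes Foxc1, and the other was K14-H2BGFP, Foxc1 fl/fl without Cre, so the reporter and the floxed alleles were present in all mice. Each genotype was 1 library sequenced in 2 runs, and the 4 runs share 1 list of 74777 regions with a chromosome, a start and an end for each and nothing else. No value could therefore be given per genotype, per library or per run, there is no replicate, the read depth is unknown, and no test was made. A gene without a region in this list may be closed or may have too few reads, and these cannot be told apart. Neither the stage of the hair cycle nor the share of dividing cells is given in the sources used here, so whether these cells were resting was not checked. Among marker genes, 15 of 15 genes of hair follicle stem cells had a peak at a gene end, against 3 of 8 of dermal fibroblasts, 2 of 9 of immune cells, 2 of 8 of endothelial cells and 4 of 8 of melanocytes. Over all protein-coding genes the share with a peak at a gene end was 57.6%. A peak inside the gene was present in 11 of 15, 3 of 8, 0 of 9, 6 of 8 and 3 of 8 genes of these lists in turn. Over all genes that share was 38.8%. The part of other cells of the skin in the peaks of the genes described here was not tested.

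As background, the origin recognition complex marks the sites where replication can begin, CDC6 and CDT1 load the ring-shaped helicase of MCM2 to MCM7 there, and the kinase CDC7 with CDC45 and the GINS complex turn the loaded ring into a moving helicase that the polymerases follow. CENP proteins build the centromere around nucleosomes that hold CENP-A and connect it to the spindle. Many of these genes are textbook targets of E2F factors. In cells out of the cycle the DREAM complex, which holds E2F4 and a pocket protein, sits on E2F and CHR elements in their promoters and keeps them low, and in S phase or mitosis activators take over. ATAC-seq reports whether the DNA can be reached, not whether a gene is transcribed.

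Nearly all of these genes had open chromatin where they begin. Of the 47 genes, 44 (93.6%, exact 95% interval 82.5 to 98.7, counting error only) had an accessible region, here called a peak, that shared at least 1 base with the 1 kb on either side of a gene end. Over all protein-coding genes this share was 57.6%. The 3 genes without such a peak were Orc1, Orc4 and Cenpv. A gene's ends in the table span all its transcripts, and in Orc1 and Orc4 the peak lay at an annotated transcript start further inside. Counting such starts, 46 of 47 genes had a peak and Cenpv alone had none. By the same count 13257 of the 21887 protein-coding genes had one.

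Transcript starts and strands came from the RefSeq promoter table, which matched 42 of the 47 genes. Gins1, Gins2, Gins4, Mcm4 and Pole are described by their gene ends only. Of the 42, 41 (97.6%) had a peak within 1 kb of a start, against 58.3% of the 17492 protein-coding genes with a start in the same table. In 40 of the 42 a peak covered the start base itself, against 53.4% of all genes. The exceptions were Cenpv and Cdc6. The opposite end of the gene was rarely accessible: 2 of the 42, Cenpb and Cenpq, had a peak there, against 11% of all genes. The exact interval of the members' share, 0.582 to 16.2%, holds that 11%. Over all 47 genes the same pair were the only ones with peaks at both ends (4.26%, against 8.14% of all protein-coding genes). The exact interval of that share, 0.52 to 14.5%, holds the 8.14% too. Neither count therefore sets the members apart from all genes.

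**Figure D1:**
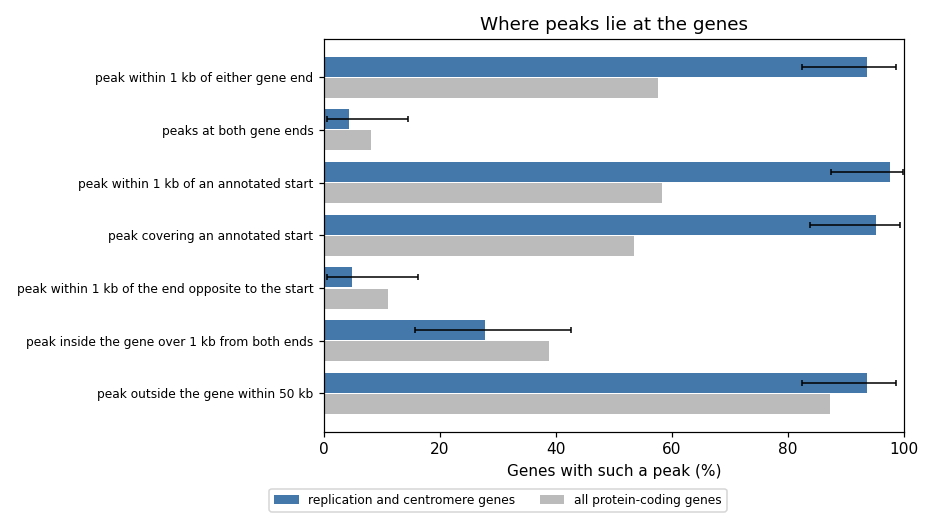
Share of genes with a peak at each place, in percent, for the replication and centromere genes (blue; bars of the exact 95% interval cover counting error only) and for all protein-coding genes (grey); rows on starts use the 42 and 17492 genes with an annotated start. The blue bars reach 93.6% at gene ends and 97.6% at starts, against 57.6% and 58.3% in grey. At both ends, at the opposite end and inside genes blue is lower, but grey lies within the interval.

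**Figure D2:**
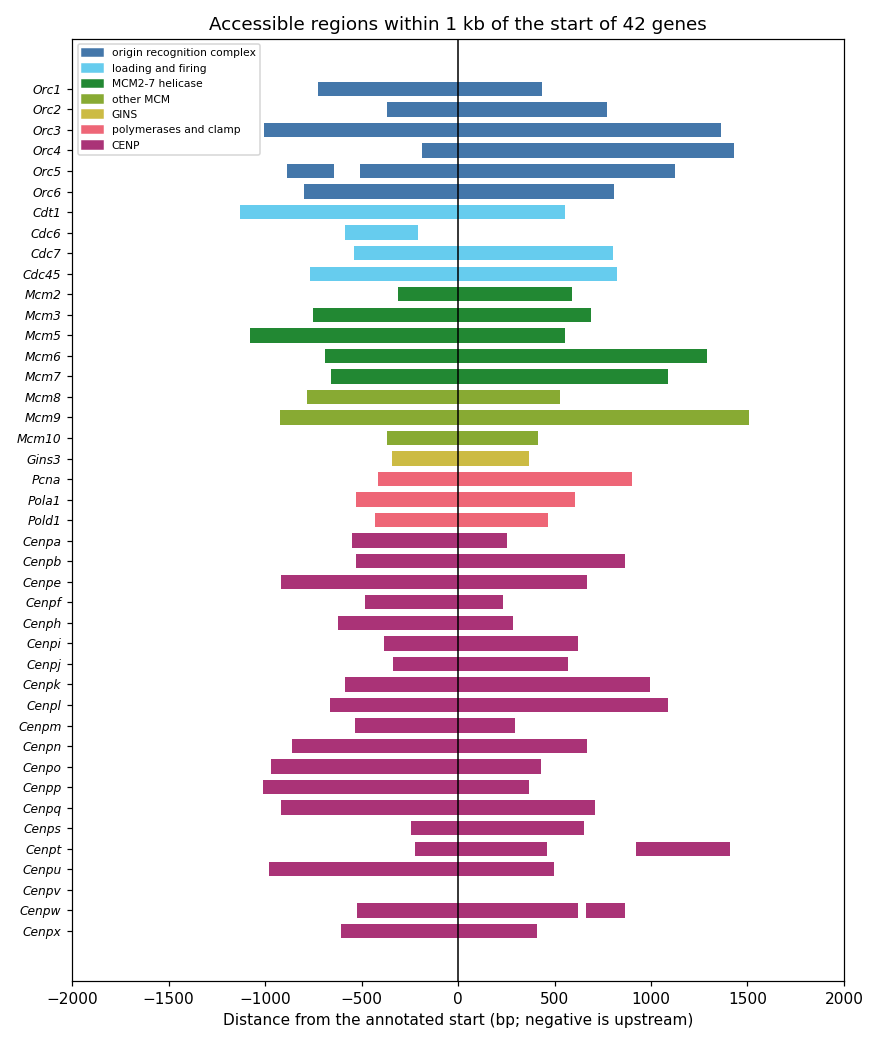
Each bar is a peak within 1 kb of the annotated start of 1 of 42 genes, drawn by its distance from that start in bp, upstream to the left, with colours for the gene's role. The bars span the start in 40 genes; the Cdc6 bar ends upstream of it and the Cenpv row is empty.

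The count was also read against base composition and gene length, both of which go with an open start. A start region was counted as CpG-rich when the 300 bases from 250 before to 50 after the start had a CpG observed over expected ratio of at least 0.6 and at least 50% GC. This held for 36 of the 42 genes (85.7%), against 48.3% of all genes. Among all CpG-rich genes 88.1% had a start peak, and among these members 35 of 36 did, so within that class the share lay much nearer to the background. Among all genes whose start region was not CpG-rich 30.5% had a start peak, while all 6 members of that class did: Cenpa, Cenpt, Mcm3, Mcm10, Orc2 and Cdc45. By length, under 10 kb 10 of 10 members had an end peak against 42.5% of all genes, from 10 to 50 kb 27 of 29 against 65.2%, and from 50 kb upward 7 of 8 against 67.7%.

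Some of the promoters, fewer than those without, hold the letters of known E2F elements. Below are the 200 bases before the start of genes with such letters, and of 2 without, from RefSeq on GRCm38.p6, chosen after the matches had been seen. Capitals mark E2F letters (TTTCCCGC, TTTCGCGC, TTTGCCGC or TTTGGCGC), CHR letters (TTTGAA or TTCGAA) and CCAAT, each on either strand, and overlapping matches run together. Positions are counted from the start, are negative before it and name the first letter of a match. The first set holds 3 subunits of the helicase, Mcm5 at chr8:75109309-75109508 on the plus strand, Mcm6 at chr1:128359706-128359905 on the minus strand and Mcm7 at chr5:138171884-138172083 on the minus strand.
Mcm5: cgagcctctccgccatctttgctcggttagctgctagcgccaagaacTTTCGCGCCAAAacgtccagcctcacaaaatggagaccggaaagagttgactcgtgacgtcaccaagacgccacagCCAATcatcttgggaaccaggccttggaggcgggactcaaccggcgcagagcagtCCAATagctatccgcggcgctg
Mcm6: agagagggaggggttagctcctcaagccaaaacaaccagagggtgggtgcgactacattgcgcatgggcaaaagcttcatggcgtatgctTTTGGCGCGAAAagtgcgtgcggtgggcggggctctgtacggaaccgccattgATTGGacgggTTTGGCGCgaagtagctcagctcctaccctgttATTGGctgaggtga
Mcm7: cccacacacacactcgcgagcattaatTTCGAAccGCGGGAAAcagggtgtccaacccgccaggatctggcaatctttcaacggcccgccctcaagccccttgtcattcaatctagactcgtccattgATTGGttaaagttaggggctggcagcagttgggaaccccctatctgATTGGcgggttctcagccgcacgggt

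In Mcm5 and Mcm6 a pair of E2F matches on opposite strands overlaps to form a near-symmetric block, beginning at -153 in Mcm5 and at -110 in Mcm6, and Mcm6 has a further match at -47. In Mcm7 a CHR match at -173 stands next to an E2F match at -165. All 3 have CCAAT matches nearer to the start, at -77 and -22 in Mcm5, -57 and -14 in Mcm6, and -72 and -26 in Mcm7.

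The second set comes from other steps of replication. Orc1 encodes the largest subunit of the origin recognition complex and lies at chr4:108579254-108579453 (plus strand), the loading factor gene Cdc6 at chr11:98907951-98908150 (plus strand), Gins3 at chr8:95633359-95633558 (plus strand) and Pola1, for the catalytic subunit of polymerase alpha, at chrX:93632156-93632355 (minus strand).
Orc1: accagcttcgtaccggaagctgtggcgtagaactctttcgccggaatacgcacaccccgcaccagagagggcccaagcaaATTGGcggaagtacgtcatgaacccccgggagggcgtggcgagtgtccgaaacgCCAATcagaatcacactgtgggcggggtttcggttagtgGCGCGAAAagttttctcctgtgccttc
Cdc6: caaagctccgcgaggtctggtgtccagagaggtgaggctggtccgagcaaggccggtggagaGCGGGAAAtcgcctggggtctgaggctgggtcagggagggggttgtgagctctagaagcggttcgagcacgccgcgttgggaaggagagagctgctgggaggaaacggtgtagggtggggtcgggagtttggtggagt
Gins3: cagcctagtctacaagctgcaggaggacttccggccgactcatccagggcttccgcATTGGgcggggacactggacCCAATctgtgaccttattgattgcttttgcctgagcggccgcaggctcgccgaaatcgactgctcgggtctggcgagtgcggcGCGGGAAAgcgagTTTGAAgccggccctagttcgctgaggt
Pola1: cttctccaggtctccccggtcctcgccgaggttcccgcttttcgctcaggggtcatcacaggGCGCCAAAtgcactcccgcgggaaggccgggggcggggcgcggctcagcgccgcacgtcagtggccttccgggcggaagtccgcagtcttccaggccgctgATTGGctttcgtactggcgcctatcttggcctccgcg

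Orc1 has an E2F match at -27, Gins3 at -41, and Cdc6 and Pola1 each at -138. Gins3 also has a CHR match at -28, close behind its E2F match. Orc1, Gins3 and Pola1 have CCAAT as well, and Cdc6 has none in its 300 bases.

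The third set is from the centromere: Cenpm of the constitutive centromere network at chr15:82244337-82244536 (minus strand), Cenpa at chr5:30666686-30666885 (plus strand), which encodes the histone variant of centromeric nucleosomes, and Cenpv at chr11:62539262-62539461 (minus strand), the gene with no peak.
Cenpm: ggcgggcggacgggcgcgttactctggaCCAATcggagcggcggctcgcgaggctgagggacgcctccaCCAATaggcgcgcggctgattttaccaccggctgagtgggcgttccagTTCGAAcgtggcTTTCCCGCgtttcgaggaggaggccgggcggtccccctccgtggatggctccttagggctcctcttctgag
Cenpa: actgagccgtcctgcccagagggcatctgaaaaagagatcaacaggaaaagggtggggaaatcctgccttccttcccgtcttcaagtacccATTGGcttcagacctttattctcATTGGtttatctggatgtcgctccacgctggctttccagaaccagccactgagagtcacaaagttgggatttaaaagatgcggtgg
Cenpv: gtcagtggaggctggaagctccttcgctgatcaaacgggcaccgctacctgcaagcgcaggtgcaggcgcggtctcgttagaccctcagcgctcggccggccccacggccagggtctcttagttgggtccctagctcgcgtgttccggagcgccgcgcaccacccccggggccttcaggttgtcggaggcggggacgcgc

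Cenpm has an E2F match at -71 beside a CHR match at -83. Cenpa shows a pair of CCAAT matches at -109 and -86 and no E2F letters, and its CHR match lies just past the start, at 17. Cenpv has no capital in the stretch shown. Its start region had 67.7% GC, against a median of 61.0% over the 42 genes.

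Counted over the 300 bases of each start region, E2F letters were present in 16 of the 42 genes (38.1%), against 3.29% of all 17492 genes, 4.79% of the 10201 genes with a peak at the start and 5.49% of CpG-rich genes. They were found in 12 of 22 replication genes and in 4 of 20 Cenp genes (Cenpb, Cenpl, Cenpm and Cenps). Among the helicase subunits with a start, Mcm3, Mcm5, Mcm6 and Mcm7 had them and Mcm2 did not. CCAAT, the letters bound by NF-Y, was present in 29 of 42 genes (69%), against 42.3% of all genes and 44.3% of those with a start peak. Both E2F letters and CCAAT stood in 10 of 42 (23.8%), against 1.62% of all genes. These 10 were Mcm3, Mcm5, Mcm6, Mcm7, Mcm8, Orc1, Gins3, Pola1, Cenpl and Cenpm.

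CHR letters, which are short and common, occurred in 11 of 42 genes (26.2%), against 20.2% of all genes and 16.4% of those with a start peak. They stood in 6 of 20 Cenp genes (Cenpa, Cenpf, Cenpl, Cenpm, Cenpn and Cenpw) and in 5 of 22 replication genes (Mcm2, Mcm7, Cdc7, Cdc45 and Gins3). ETS letters (CCGGAAG) occurred in 14 of 42 (33.3%, against 12.9% of all genes and 19.5% with a start peak), and the GC box (GGGCGG) in 35 (83.3%, against 49.2% and 69.2%). TATA letters (TATAAA) occurred in 2, Cdc45 and Cenpk (4.76%, against 14.8% and 8.99%). The 10-letter NRF1 motif stood in 1, Cdc7 (2.38%, against 1.47% and 2.28%). Among CpG-rich genes CHR letters stood in 14.2%, ETS letters in 21.4%, the GC box in 79% and TATA letters in 6.96%. The GC box and TATA shares of members lay near those of that class. Whether the CHR and ETS shares, of 11 and 14 genes, differ from it was not tested. A match is a description of the letters and not a bound site.

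Of 22 E2F matches in the 16 genes, 21 lay inside a peak, and so did 12 of 12 CHR matches and 54 of 56 CCAAT matches. With a peak over the start in 40 of the 42 genes, most letters near a start lie in a peak whatever they spell, so these counts say little about the motifs. Among all genes with the letters, 85% of those with E2F, 47.3% of those with CHR and 61% of those with CCAAT had a start peak. The E2F match outside was that of Cdc6. Its only end peak, chr11:98907563-98907945, was 383 bp wide, the narrowest of all members, and covered the outer gene end but stopped 206 bp before the annotated start. The median width of the widest start peak was 1354 bp in the 16 genes with E2F letters and 1339 bp in the others with a start peak, a difference that was not tested.

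**Figure D3:**
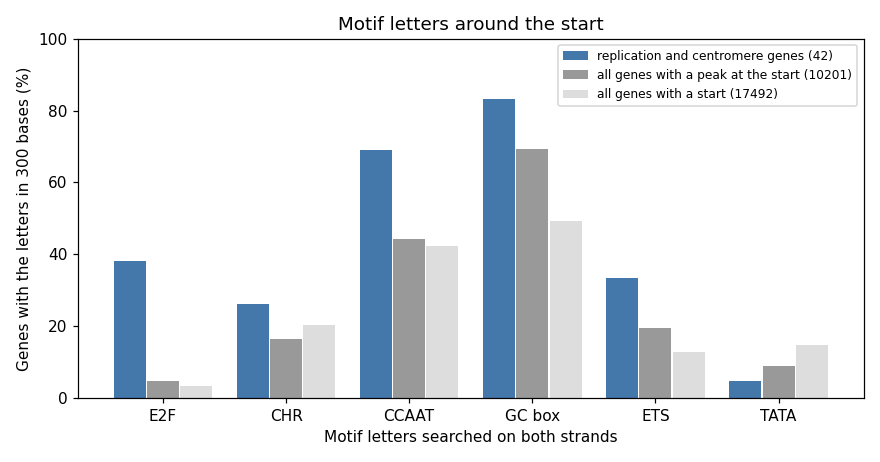
Share of genes, in percent, whose 300 bases around the start hold the letters of each motif on either strand, for the 42 replication and centromere genes, for all genes with a start peak and for all genes with a start. The E2F bars stand at 38.1%, 4.79% and 3.29%, and the TATA bars at 4.76%, 8.99% and 14.8%. The TATA bar of the members rests on 2 genes. The exact interval of 2 of 42, 0.582 to 16.2%, holds the 8.99% and the 14.8%, so this count does not set the members apart. CpG-rich genes, not drawn, had E2F letters in 5.49%, TATA letters in 6.96% and the GC box in 79%.

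The peaks at these genes were of ordinary width. The widest end peak had a median of 1360 bp in the 44 genes with one (quartiles 982 and 1614), against 1328 bp over 12600 protein-coding genes (quartiles 912 and 1817), and 29 of the 44 lay between those outer quartiles. The peak covering a start reached a median of 596 bp upstream and 621 bp downstream in members, against 617 and 692 bp over all genes. The widest end peak of a member ranged from 383 bp at Cdc6 to 2468 bp at Pole. Across the whole list the median peak was 587 bp wide, so most member peaks were wider than a typical region of the list, as gene end peaks were in general. Width is the one property of a peak that the list gives, and it says nothing on its own about the number of reads.

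In the helicase genes end peaks were 899 bp at Mcm2, 1444 bp at Mcm3, 1500 bp at Mcm4, 1631 bp at Mcm5, 1984 bp at Mcm6 and 1747 bp at Mcm7. These 6 subunits form 1 ring in equal number, and 5 of the 6 peaks were wider than the median over all genes, with Mcm2 the exception. Mcm8 and Mcm9, whose products act together in repair of broken DNA, had peaks of 1313 and 2434 bp. Mcm10, for an initiation factor without the helicase's ring, had one of 781 bp.

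In the origin recognition complex the peak at the start was 1162 bp at Orc1, 1145 bp at Orc2, 2370 bp at Orc3, 1618 bp at Orc4, 1633 bp at Orc5 and 1610 bp at Orc6. All 6 genes were open at a start, and the peaks of Orc4, Orc5 and Orc6 were of nearly equal width. For Orc1 the peak, chr4:108578729-108579890, lay over the start at 108579454, which is inside the outermost bounds of the gene, 108575705 to 108616030. In Orc4 it was chr2:48948652-48950269, inside the bounds 48902824 to 48952902. Orc5 had a small extra peak of 245 bp beyond its main one.

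Genes of loading and firing had peaks of 383 bp at Cdc6, 1687 bp at Cdt1, 1339 bp at Cdc7 and 1593 bp at Cdc45. Cdc6 thus stood well below its partner in loading, Cdt1. The GINS genes, which encode the 4 subunits of a small complex of the moving helicase, had 1241 bp at Gins1, 1007 bp at Gins2, 713 bp at Gins3 and 1078 bp at Gins4. All 4 lay below the median of all genes. Polymerase and clamp genes had 1138 bp at Pola1, 894 bp at Pold1, 2468 bp at Pole and 1317 bp at Pcna, the sliding clamp that holds polymerases on DNA. The Pole peak was the widest of all 47 genes and also reached the end of the neighbouring gene Pxmp2.

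Among the 20 Cenp genes 19 had a peak, with a median width of the widest end peak of 1380 bp (lowest 717 bp at Cenpf, highest 1815 bp at Cenpj). The histone variant gene Cenpa had a peak of 804 bp. Cenpb, for the protein that binds a motif of centromeric repeats, had one of 1395 bp at its start and one of 1494 bp at its other end, in a gene of 2779 bp. The motor gene Cenpe had 1591 bp and Cenpf, for a large protein of the outer kinetochore, 717 bp. In the histone-fold group of Cenps, Cenpt, Cenpw and Cenpx the start peaks were 894, 684, 1145 and 1017 bp. Those of Cenpo, Cenpp, Cenpq and Cenpu, whose products belong to a common module, were 1404, 1380, 1626 and 1478 bp. The start peaks of Cenpo, Cenpp, Cenpq and Cenpx also held the end of another protein-coding gene. Cenpj, which despite its symbol encodes a centriole protein, had a start peak of 912 bp apart from the peak at its gene end.

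Cenpv was the one gene with no peak at an end or start. Its bounds are chr11:62524944-62539869 and its annotated start is at 62539261. The nearest peak began 10307 bp upstream, chr11:62549568-62552811, and lay at the ubiquitin gene Ubb, while on the other side the next was 43083 bp from the start. Its start region was CpG-rich, a class in which 88.1% of all genes had a start peak. No peak lay inside the gene.

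**Figure D4:**
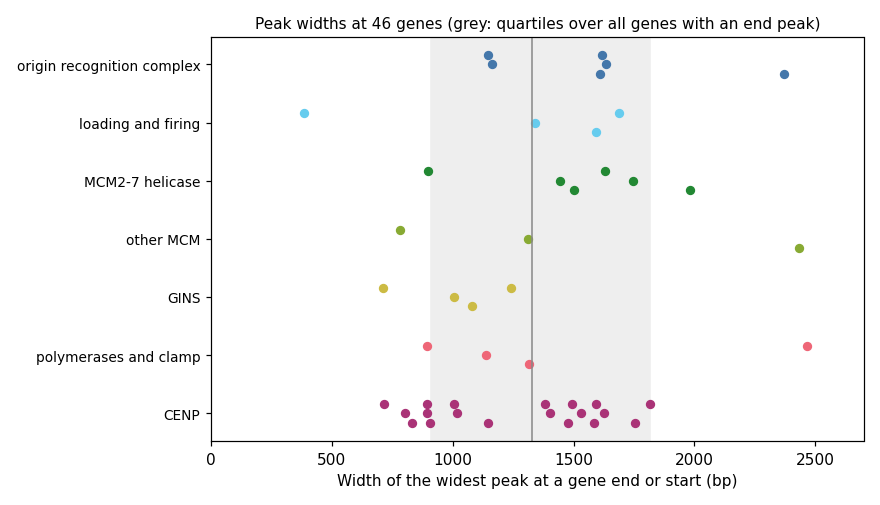
Each point is the width in bp of the widest peak at an end or start of 1 of the 46 genes with such a peak, by role; the grey band and line are the quartiles and median over all protein-coding genes with an end peak. The points of the GINS genes lie left of the line, 5 of 6 helicase genes lie right of it, and Cdc6 is the lowest point at 383 bp.

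Many of these peaks were shared with a neighbour. In 18 of the 46 genes with an end or start peak (39.1%) it also held the end of another protein-coding gene, against 23.1% of the 13257 protein-coding genes with such a peak. For a shared peak the list cannot say which gene its openness belongs to. The nearest ends of the pair were at most 242 bp apart in 16 of the 18 cases. Strands were known for both genes in 11 pairs, and in all 11 they were opposite. Such pairs were not counted over all genes, so this cannot be read as particular to the members. Replication genes with shared peaks were Mcm4 with Prkdc, which encodes the catalytic subunit of DNA-dependent protein kinase, Mcm7 with Ap4m1, Mcm8 with Trmt6, Cdc45 with Ufd1, Pcna with Cds2, Pole with Pxmp2, Orc1 with Prpf38a, Orc3 with Rars2, Orc4 with Mbd5 and Orc6 with Vps35. Cenp genes among them were Cenpj with Parp4, Cenpk with Ppwd1, Cenpo with Ptrhd1, Cenpp with Nol8, Cenpq with Mmut, Cenpt with Thap11 and Cenpx with Lrrc45. In Gins2, Gins4, Orc2 and Orc5 the peak reached the end of a long non-coding RNA gene only.

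The median width of the shared peaks was 1588.5 bp and that of the others 1141.5 bp. A wide peak reaches another gene's end more readily, so the call itself favours wide peaks. The same widths were not compared over all genes. At Cenpj and Cenpt the gene end and the annotated start were separate places. The end of Cenpj is 130 bp from that of Parp4, and a peak of 1815 bp covered both. The end of Cenpt is 17 bp from that of Thap11, and a peak of 892 bp covered both. The annotated starts of Cenpj and Cenpt had separate peaks, of 912 and 684 bp.

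Of the 47 genes, 13 (27.7%, exact 95% interval 15.6 to 42.6) had a peak inside, over 1 kb from both ends. The share over all genes, 38.8%, lies within that interval, and the median number of inside peaks was 0 in both. By length, this was 1 of 10 genes under 10 kb (9.36% of all genes), 5 of 29 from 10 to 50 kb (41.4%) and 7 of 8 from 50 kb upward (81.4%), so the members below the background were those of middle length. Without peaks that lie at an annotated start, 9 of the 42 genes with a start had one inside. The exact 95% interval, 10.3 to 36.8%, holds the 33.8% of all genes.

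The 24 inside peaks were unevenly held. Mcm9, at 93692 bp one of the longest members, had 5, with widths of 267, 1127, 200, 1031 and 3213 bp, and the widest of them, chr10:53596036-53599248, lay at the end of Asf1a, a histone chaperone gene within the bounds of Mcm9. Pola1 had 3, in 327622 bp on the X chromosome, and Cenpp had 3 in 188926 bp. Cenpw had 2 small ones of 200 and 282 bp. Cenpt had 2, both within 1 kb of its annotated start, and Orc1 had 2, of which 1 was its start peak. Cenpe, Cenpi, Cenpj, Cenpk, Mcm10, Orc4 and Pole had 1 each, which in Cenpj and Orc4 was the start peak. None of the 6 helicase genes, the 4 GINS genes or the 4 genes of loading and firing had any. All of these are shorter than 50 kb, the longest being Cdc45 at 31526 bp. Over all genes 9.36% of those under 10 kb and 41.4% of those from 10 to 50 kb had a peak inside.

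Around the genes, peaks were about as frequent as around other genes. Outside the gene and within 50 kb, 44 of 47 (93.6%) had at least 1 peak, against 87.2% of all protein-coding genes, and the median was 4 peaks (quartiles 2 and 6) against 3 (quartiles 1 and 6). Of 204 such peaks, 79 lay within 1 kb of the end of another gene. Counting only peaks over 1 kb from every annotated gene end, 40 of 47 genes (85.1%) had one, against 79.1% of all genes, and the median was 2 in both. Such distal peaks were 61.3% of the peaks around members and 64.5% of those around all genes.

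Mcm5 had the most, 13 peaks of which 11 were distal, with 6 beyond its far end and 7 before its start. Cenpf had 10 of which 9 were distal, Cenpq 10 of which 8 were, and Cenpb 8 of which 5 were. Each of Cdc6, Cdc7, Cdc45 and Cdt1 had 7 in all, as did Mcm2, Mcm7 and Cenpx, and distal peaks among them numbered from 1 at Mcm7 to 6 at Cdc7 and Cdc45. Orc5, Cenpm and Cenpw had none (0) within 50 kb outside the gene. Mcm4, Cenph, Cenpl and Orc1 had peaks only at the ends of other genes. By role, the median was 2 in the origin recognition complex and 4.5 in the helicase, in groups of 6 genes that overlap widely.

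**Figure D5:**
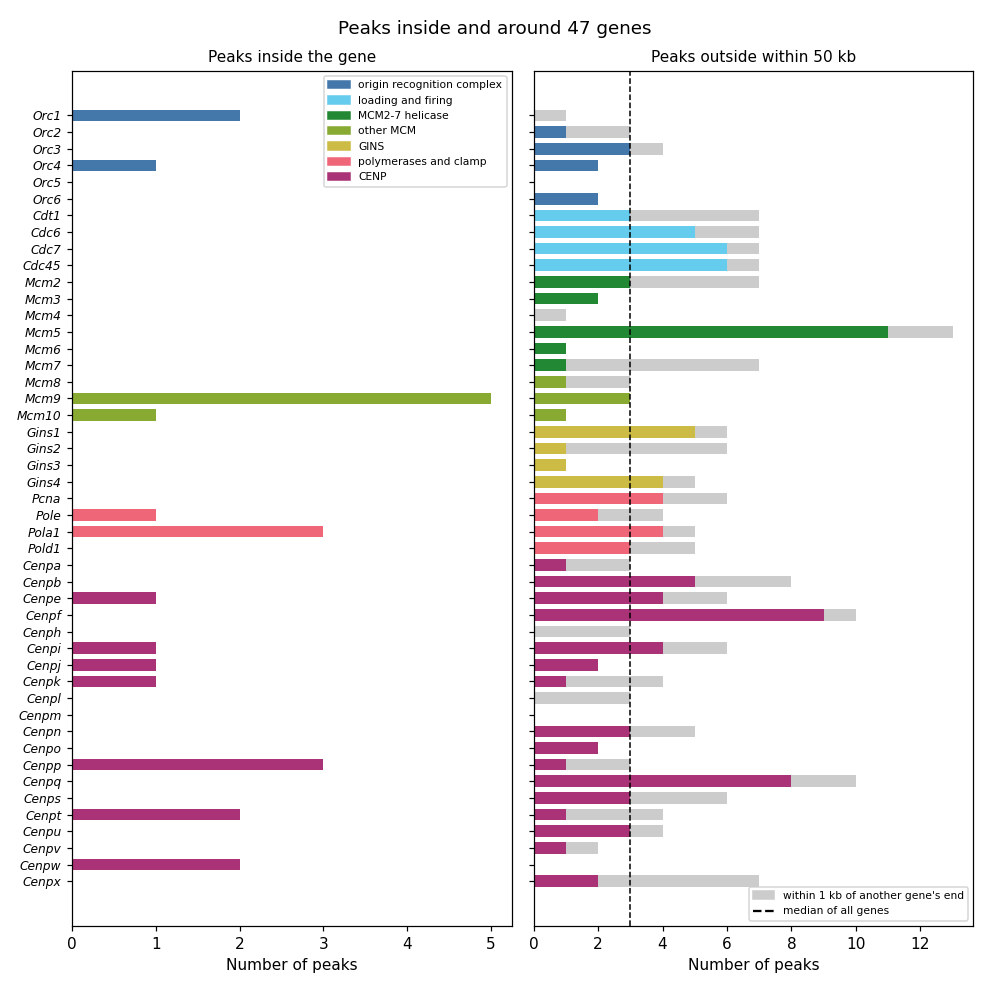
Number of peaks inside each of the 47 genes (left) and outside within 50 kb (right), where grey marks peaks within 1 kb of another gene's end, colour marks distal peaks and the dashed line is the median over all genes. Mcm9 has the longest bar inside with 5 and Mcm5 the longest outside with 13, and most genes have no bar on the left.

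The other genes of these pathways were open in like measure. Of 38 further replication genes, such as the small polymerase subunits, replication factor C, replication protein A and nucleotide synthesis enzymes, 35 (92.1%) had an end peak, against the 57.6% of all genes. Pola2, Rfc1 and Rfc2 had none, although Rfc1 had a peak of 899 bp at its annotated start. Of 27 further kinetochore genes 25 (92.6%) had one, all but Birc5 and Sgo2a, and Sgo2a had 829 bp at a start. Regulators of the same program, the E2F, pocket protein and DREAM genes, had one in 20 of 20 cases. E2F letters stood in the start regions of 8 of 32 further replication genes (25%), 2 of 22 further kinetochore genes (9.09%) and 6 of 15 regulators (40%). In the 9 stem cell markers with a start they stood in none (0). Over all genes with a start the share was 3.29%, and 4.79% with a start peak, so a list of 9 genes cannot show a lack of them.

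Pola1 and Cenpi are the 2 members on the X chromosome, where end peaks were less frequent, at 43.4% of 966 protein-coding genes against 58.9% on the autosomes. Both had a peak over the start, of 1138 and 1007 bp, and both had peaks inside. An inside peak was present in 30.1% of all genes on the X chromosome. Both members are longer than 50 kb, a class in which 81.4% of all genes had one. The other 45 members are on autosomes, and no peak was shared by 2 members: the closest neighbours among them, Pcna and Mcm8, were 562957 bp apart.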

How the data were processed

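The authors deposited 1 list of accessible regions for the 4 runs, with a chromosome, a start and an end each and no measured value. The mm10 build and the tools Bowtie2, bedtools and MACS2 are named, per the submitters' processing notes. Their versions and settings, read filters, the Tn5 offset and whether reads were pooled before peak calling are not given in the sources used. Starts were converted to count from 1, and the mitochondrial region was left out, which leaves 74776. Genes came from RefSeq GRCm38.p6 (49960 outside the mitochondrial chromosome), whose primary coordinates are those of mm10. Windows of 1 kb were matched by at least 1 shared base, and inside and outside peaks by midpoint. Motif letters were searched as exact matches on both strands; with several starts a gene counts when any start has them. Shares have exact Clopper-Pearson 95% intervals. Python 3.11.15, pandas 2.3.3 and scipy 1.17.1 were used, and the counting was checked on made-up peaks. Members and lists were chosen with earlier results of these data known. Named genes followed a rule: genes without an end peak, with peaks at both ends, the widest and narrowest, shared ends, most peaks inside or around, and each complex in turn. Of the listed symbols 4 were not found. Alternatives changed windows, distances, the width of peaks kept and the stretch searched for motifs. The comparison of knockout with control was not made, and 1 neighbouring gene is not reported here.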

Additional observations from a re-analysis of the deposited data

How the results depend on the processing

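The number of members with an end peak was 44 with windows of 250 or 2500 bp, by midpoint and without the smallest peaks, and 43 with only peaks at least as wide as the median, while all genes ranged from 51.6% to 63.5%. Start peaks, under windows and a width limit chosen after seeing the data, stayed at 41 or 40 genes. Members with a peak inside fell to 8 when only peaks at least as wide as the median were kept (27.1% of all genes). The median number of peaks around a member was 1 within 20 kb and 8 within 100 kb (all genes 1 and 7), 2 for peaks away from every gene end (all genes 2) and 0 for peaks whose nearest protein-coding gene was the member (all genes 0). In the 100 bases before the start, E2F letters stood in 6 of the 42 members (1.19% of all genes), CHR letters in 5 (6.43%) and ETS letters in 7 (6.92%). CCAAT stood in 22 (23.9%), the GC box in 25 (36.5%), and NRF1 and TATA letters in 0 (0.863% and 6.82%). All counts were lower, since the stretch searched is shorter. No paired analysis was possible because there is 1 list for all runs. Leaving out a library was not possible either, and the unknown read depth limits every statement on a missing peak.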
